A study of Homo sapiens with 6 samples.

Results

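The 9 genes CDH1, CDH2, VIM, FN1, ZEB1, ZEB2, SNAI1, SNAI2 and TWIST1, which mark or drive the epithelial-mesenchymal transition, were examined for peaks of PAI-1 on chromatin, out of 20162 protein-coding genes annotated on GRCh37. They were chosen by name, and every peak that lay in a gene or within 50 kb of it was taken. PAI-1 is the main secreted inhibitor of the plasminogen activators, and the study asked whether the protein also binds DNA in the nucleus. It was precipitated from RT112 and from UM-UC-3, 2 established lines of human bladder cancer cells, with 1 antibody and no other treatment in the labels. Each cell line had 2 ChIP-seq libraries, which the labels call biological replicates, and 1 input library without antibody, for which no peak list was used here. Each group is a single cell line, so what sets RT112 apart from UM-UC-3 cannot be told apart from what sets epithelial apart from mesenchymal cells.

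In the epithelial-mesenchymal transition, cells lose the junctions that hold an epithelium together and gain the cytoskeleton, matrix and motility of mesenchymal cells. Zinc finger and helix-loop-helix repressors of the ZEB, SNAI and TWIST families bind short DNA motifs called E-boxes and shut off epithelial genes such as CDH1. RT112 is commonly used as a bladder cancer line of epithelial character and UM-UC-3 as one of mesenchymal character. The peak lists hold no expression values, so neither this character nor the activity of any of the 9 genes was measured.

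All 9 genes had a peak in their window in all 4 libraries, where 80.9% of all protein-coding genes had one in both libraries of RT112 and 91.7% in those of UM-UC-3. None had a peak within 3 kb of its main start site, beside 23.9% of all genes, while 5 of 9 had one near the start of some annotated transcript, beside 49.8%. RT112 and UM-UC-3 placed nearly all of these peaks at different positions: of 123 sites, 4 (3.25%) held peaks of both cell lines, close to the 3.24% of all sites in the genome. Relative to the size of the lists, both UM-UC-3 libraries were higher at ZEB2 and VIM, 2 of 9 genes, beside 32.4% of all protein-coding genes. Both RT112 libraries were higher at ZEB1, FN1, CDH2, SNAI2 and SNAI1, 5 of 9 genes, beside 27.4%. As raw numbers of peaks, none of the genes higher in RT112 had both RT112 libraries above both UM-UC-3 libraries, and the mean of CDH2 turned. FN1 turned with 3 kb on each side of the gene. VIM held 1 peak in each RT112 library, against 2 and 3 in UM-UC-3. On the ratio to the density in the 1 Mb beyond the window, VIM, CDH2, SNAI1 and SNAI2 overlapped between the cell lines. The largest difference in ratio was at ZEB2, with 0.187 ± 0.0293 peaks per 10000 in RT112 and 0.627 ± 0.0191 in UM-UC-3 (SD, n = 2). With 2 libraries for each cell line, no exact permutation test could give a two-sided p below 0.333.

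For each gene and cell line, the strongest peak was the one found in both replicates whose lower score of the 2 was highest. The peak score, a −log10 significance value from the peak caller (whether of p or q is not stated) is not on a common scale between libraries, so beyond this choice scores are given for each library. The central 200 bases of 6 of these peaks are shown, since they include both ZEB2 peaks and other strong peaks whose position differed between the cell lines. They are reference sequence of GRCh37 on the + strand, with E-boxes (CANNTG, which reads as CANNTG on the other strand too) in capitals and each position written with its chromosome. They came from introns of CDH1, ZEB1 and ZEB2, from an exon of FN1 and from the sequence downstream of SNAI1.
CDH1 peak of RT112, chr16:68822284-68822483: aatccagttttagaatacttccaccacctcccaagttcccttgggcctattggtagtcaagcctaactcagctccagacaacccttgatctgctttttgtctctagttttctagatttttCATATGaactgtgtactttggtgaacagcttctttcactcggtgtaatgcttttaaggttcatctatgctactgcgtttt
FN1 peak of RT112, chr2:216229244-216229443: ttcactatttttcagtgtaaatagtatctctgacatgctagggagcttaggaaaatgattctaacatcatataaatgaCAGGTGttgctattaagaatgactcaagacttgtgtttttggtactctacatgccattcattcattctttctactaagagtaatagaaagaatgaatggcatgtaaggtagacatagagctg
ZEB1 peak of UM-UC-3, chr10:31783875-31784074: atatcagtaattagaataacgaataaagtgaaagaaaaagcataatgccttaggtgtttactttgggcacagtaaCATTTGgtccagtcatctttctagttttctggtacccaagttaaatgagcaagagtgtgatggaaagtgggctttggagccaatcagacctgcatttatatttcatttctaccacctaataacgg
ZEB2 peak of RT112, chr2:145203020-145203219: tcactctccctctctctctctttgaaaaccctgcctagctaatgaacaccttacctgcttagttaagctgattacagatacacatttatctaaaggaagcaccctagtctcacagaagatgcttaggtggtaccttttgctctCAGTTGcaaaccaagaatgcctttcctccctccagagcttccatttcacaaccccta
ZEB2 peak of UM-UC-3, chr2:145253494-145253693: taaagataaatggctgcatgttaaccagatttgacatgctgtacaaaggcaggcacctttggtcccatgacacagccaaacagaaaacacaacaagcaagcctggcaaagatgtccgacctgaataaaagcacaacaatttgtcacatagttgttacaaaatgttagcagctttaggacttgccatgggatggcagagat
SNAI1 peak of RT112, chr20:48644723-48644922: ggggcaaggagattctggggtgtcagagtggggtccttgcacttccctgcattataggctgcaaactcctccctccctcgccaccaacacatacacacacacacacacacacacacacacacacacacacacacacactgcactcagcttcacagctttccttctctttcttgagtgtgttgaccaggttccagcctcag

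The strongest peaks differed in how often their sequences recur in the genome. The central 200 bases of each were read as overlapping words of 30 bases, and each word was looked up on both strands of the reference. No word of the CDH1 peak of RT112, of either ZEB2 peak or of the ZEB1 peak of UM-UC-3 was found at a second place. In the TWIST1 peak of RT112, every word was found at more than 1 place, with a median of 1293 places. The ZEB1 peak of RT112 had 81.3% such words and a run of 26 identical bases, and the VIM peak of UM-UC-3 had 73.1%. In the SNAI1 peak of RT112 a repeat of 2 bases ran over 46 bases, and 21.1% of the words recurred. The CDH1 peak of UM-UC-3 had a run of 12 identical bases and 31.6% recurring words, against 2.92% in the FN1 peak of RT112. Over all peaks at the 9 genes, at least 50% of the words recurred in 5 of 53 peaks of RT112 replicate 1, 3 of 33 of replicate 2, 3 of 49 of UM-UC-3 replicate 1 and 3 of 50 of replicate 2. These shares were 9.43, 9.09, 6.12 and 6.0%, beside 9.95, 11.6, 14.2 and 11.9% among every 100th peak of the same libraries. Bowtie, run with default parameters, reports a single alignment for a read that matches several places, and the part of such reads in the peaks was not tested.

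E-boxes were about as frequent at the 9 genes as at other peaks. In the central 200 bases, CANNTG was present in 35 of 53 peaks (66.0%) of RT112 replicate 1, 20 of 33 (60.6%) of RT112 replicate 2, 29 of 49 (59.2%) of UM-UC-3 replicate 1 and 30 of 50 of UM-UC-3 replicate 2. The shares over all peaks of these libraries were 66.3, 66.2, 65.1 and 64.9%. The form CAGGTG, or CACCTG on the other strand, which the repressors of the ZEB and SNAI families are known to prefer and which CANNTG includes, was in 12.2 to 16.0% of the peaks at the 9 genes and in 14.1 to 14.9% of all peaks. Among the 6 sequences shown, it was present in the FN1 peak of RT112. A match is a description of the letters and not a bound site.

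To find how PAI-1 peaks lay around the genes, the window of each gene was read in every library. Both replicates of RT112 had a peak in the window of 9 of 9 genes, beside 80.9% of all protein-coding genes. Both replicates of UM-UC-3 did so for 9 of 9, beside 91.7%. Most genes of this length have a peak: among the 500 protein-coding genes nearest in length to each of the 9, the share with a peak in both replicates ran from 69.2 to 99.2% in RT112 and from 82.0 to 99.8% in UM-UC-3. A peak within 3 kb of the start site of the canonical transcript was found in 0 of 9 genes in any of the 4 libraries, beside 23.9% of all protein-coding genes. When the start sites of all annotated transcripts were used, a choice made after these data were seen, 5 of 9 genes had one, beside 49.8%. These were FN1 in all 4 libraries, CDH2 in 3, ZEB1 in both RT112 libraries, CDH1 in RT112 replicate 1 and ZEB2 in UM-UC-3 replicate 1.

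The nearest peak to the main start site lay 4.13 kb from it at CDH1, 6.37 kb at FN1, 7.47 kb at SNAI2, 7.62 kb at VIM, 8.96 kb at CDH2, 10.1 kb at TWIST1, 14.6 kb at ZEB1, 15.4 kb at SNAI1 and 16.7 kb at ZEB2. The CDH1, SNAI2, VIM, CDH2, TWIST1 and ZEB1 peaks among these were each found in a single library. Those at FN1 and ZEB2 were in both UM-UC-3 libraries, and that at SNAI1 was in both RT112 libraries.

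**Figure D1:**
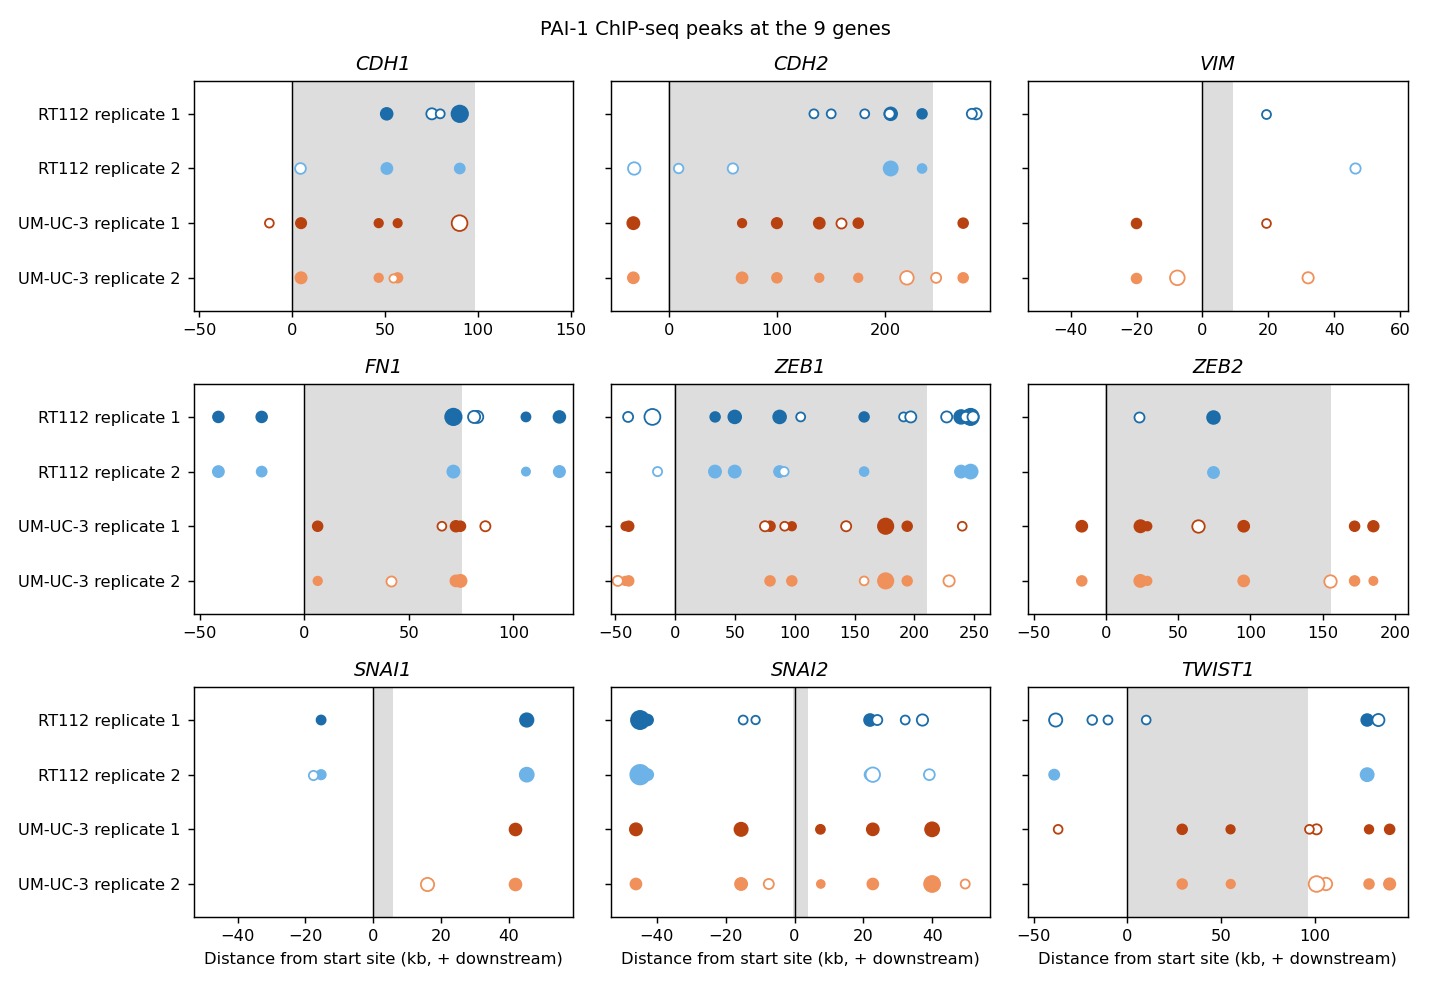
Position of each PAI-1 peak in 4 libraries, in kb from the start site of the canonical transcript (+ is downstream), for 9 genes with the gene body in grey; filled circles are peaks found in both replicates of a cell line, open circles are peaks of 1 replicate, and larger circles have higher scores. Filled circles of RT112 (blue) and UM-UC-3 (orange) stand at different positions, some of them close together, and no circle lies within 3 kb of a start site.

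CDH1 encodes E-cadherin, the adhesion molecule of epithelial adherens junctions, and spans 98.2 kb of chromosome 16 (68771195 to 68869440). Its window held 4 and 3 peaks in RT112 replicates 1 and 2, and 5 and 4 in UM-UC-3 replicates 1 and 2. Scaled to 10000 peaks of the library, this was 0.415 and 0.498 in RT112, against 0.458 and 0.351 in UM-UC-3. The cell lines overlapped in these values. All but 1 of the CDH1 peaks lay inside the gene, in its introns. The strongest repeated peak of RT112 was at 50.9 kb from the start site, where negative distances lie upstream (scores 6.15 and 5.29), and that of UM-UC-3 was at 4.85 kb (scores 4.42 and 5.45). Neither coincided with a peak in the opposite cell line. A site at 90.2 kb, in an intron (68861348 to 68861707), had peaks in RT112 replicates 1 and 2 (scores 13.0 and 4.09) and in UM-UC-3 replicate 1 (11.3) but none in UM-UC-3 replicate 2. The window also reaches CDH3, the gene of P-cadherin.

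CDH2 encodes N-cadherin, the cadherin of neural and mesenchymal cells, and lies on chromosome 18 (25512843 to 25757910). Its window held 8 and 5 peaks in RT112, against 7 and 8 in UM-UC-3. Per 10000 peaks of the library, this was 0.83 in both RT112 libraries, against 0.641 and 0.701 in UM-UC-3. Both RT112 libraries were higher on this scale, while the raw numbers overlapped. Of the 20 sites at CDH2, 2 were found in both replicates of RT112, 6 in both of UM-UC-3 and 0 in both cell lines. The strongest repeated peak of RT112 was in an intron at 205 kb (scores 7.43 and 9.32), and that of UM-UC-3 was upstream at -32.9 kb (scores 6.61 and 5.16). In the 1 Mb beyond the window on both sides there were 2.95 and 2.2 peaks per 100 kb in RT112, against 2.6 and 2.85 in UM-UC-3, and the ratio of the window's density to this flank was 0.786 and 0.659 in RT112, against 0.78 and 0.813 in UM-UC-3. On that ratio the libraries overlapped, and the sign of the difference turned.

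VIM encodes vimentin, the intermediate filament of mesenchymal cells, and spans 9.35 kb of chromosome 10. Its window held 1 peak in each RT112 library, 2 in UM-UC-3 replicate 1 and 3 in replicate 2. The scaled number was 0.104 and 0.166 in RT112, against 0.183 and 0.263 in UM-UC-3. Both UM-UC-3 libraries were higher, by 1 or 2 peaks. None of the peaks lay in the gene itself. The 2 peaks of RT112 were at different places, 19.3 and 46.3 kb, so VIM had no repeated peak in that cell line. The single repeated peak of UM-UC-3, at -20.2 kb (scores 3.88 and 3.85), lay 6.15 kb from the start site of TRDMT1, an RNA methyltransferase gene, and was the one with 73.1% recurring words. Without it, UM-UC-3 had 1 and 2 peaks at VIM, against 1 in each RT112 library. UM-UC-3 replicate 1 then held the same number as each RT112 library, from a longer list, so the cell lines no longer stood apart. A site at 19.3 kb had a peak in replicate 1 of each cell line, with scores of 2.76 and 2.64, near the lowest in the lists.

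FN1 encodes fibronectin, a matrix glycoprotein that mesenchymal cells deposit, and spans 75.6 kb of chromosome 2 (216225163 to 216300796). Its window held 7 and 5 peaks in RT112, against 5 and 4 in UM-UC-3. Scaling to the library gave 0.726 and 0.83 in RT112, against 0.458 and 0.351 in UM-UC-3, so both RT112 libraries were higher. The ratio to the 1 Mb flank was 1.17 and 1.27 in RT112, with 0.933 and 0.68 in UM-UC-3, and the libraries did not overlap there either. Repeats between replicates were frequent, with 10 of 12 RT112 peaks and 6 of 9 UM-UC-3 peaks found again. The 5 repeated sites of RT112 and the 3 of UM-UC-3 did not coincide. RT112 had its strongest at 71.3 kb (scores 13.0 and 6.56), in an exon of FN1 annotated as neither coding nor untranslated. UM-UC-3 had repeated peaks close to it, at 72.5 kb (scores 4.87 and 5.16) and 74.7 kb (scores 3.88 and 6.57), the latter in an untranslated region. In the gene with only 3 kb on each side, the difference turned: UM-UC-3 was 0.223 peaks per 10000 higher. Outside the gene body, 2 of the 5 repeated RT112 sites lay in ATIC, a neighbouring gene of purine synthesis.

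ZEB1 encodes a zinc finger repressor of CDH1 and spans 211 kb of chromosome 10 (31607424 to 31818742). Its window held the most peaks of the 9 genes: 14 and 8 in RT112, against 10 and 9 in UM-UC-3. The scaled number was 1.45 and 1.33 in RT112, against 0.915 and 0.789 in UM-UC-3. Both RT112 libraries were higher, and the ratio to the flank, 1.11 and 0.934 against 0.683 and 0.526, did not overlap between the cell lines either. Of 28 sites, 5 were found in both replicates of RT112 alone and 6 in both of UM-UC-3 alone. The strongest repeated peak of RT112 lay at 247 kb, past the end of the gene (scores 12.8 and 9.14). The strongest of UM-UC-3 was in an intron at 176 kb (scores 11.3 and 11.2), and no peak of RT112 overlapped it. Another site, in an intron at 158 kb, had low peaks in both RT112 libraries (3.8 and 2.97) and in UM-UC-3 replicate 2 (2.63). Without the peaks in which at least 50% of the words recurred, ZEB1 had 12 and 6 peaks in RT112, against 9 in each UM-UC-3 library.

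ZEB2 encodes the second repressor of this family and spans 157 kb of chromosome 2 (145121931 to 145278624). Its window held 2 peaks in RT112 replicate 1, 1 in RT112 replicate 2 and 7 in each UM-UC-3 library. After scaling, these were 0.207 and 0.166 in RT112, against 0.641 and 0.614 in UM-UC-3, a difference of 0.44 peaks per 10000. UM-UC-3 was higher in both libraries, and the ratio to the flank (0.458 and 0.779 in RT112, 1.27 and 1.09 in UM-UC-3) did not overlap. The flank was also sparse in RT112, with 1.7 and 0.5 peaks per 100 kb against 2.15 and 2.5 in UM-UC-3. Nearly all the UM-UC-3 peaks repeated, 12 of 14, at 6 sites. The strongest was in an intron at 23.9 kb (scores 6.61 and 6.57), 1 lay in a coding exon at 95.3 kb (145182174 to 145182415, scores 5.19 and 5.16), and the nearest to the start site was upstream at -16.7 kb (scores 5.19 and 3.85). RT112 had 1 repeated peak, in an intron at 74.4 kb (scores 7.43 and 5.29), where UM-UC-3 had none. None of the ZEB2 peaks had recurring words in 50% or more.

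SNAI1 encodes Snail, a zinc finger repressor that starts the transition in development, and spans 5.91 kb of chromosome 20. Its window held 2 and 3 peaks in RT112, against 1 and 2 in UM-UC-3. The scaled number was 0.207 and 0.498 in RT112, against 0.0915 and 0.175 in UM-UC-3, so both RT112 libraries were higher. The difference of the means, -0.219 (UM-UC-3 minus RT112), was close to the SD of the RT112 replicates, 0.206. The ratio to the flank overlapped. No peak lay in the gene. The strongest repeated peaks of the cell lines stood close together without overlap, at 45.2 kb in RT112 (scores 8.36 and 9.13) and at 41.7 kb in UM-UC-3 (scores 6.26 and 6.22).

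SNAI2 encodes Slug, the closest relative of Snail, and spans 4.14 kb of chromosome 8. Its window held 8 and 5 peaks in RT112, against 5 and 7 in UM-UC-3, many for a gene so short. Scaled as before, the gene had 0.83 in both RT112 libraries and 0.458 and 0.614 in UM-UC-3. Both RT112 libraries were higher, but the ratio to the flank, 1.51 and 1.33 against 1.16 and 1.34, overlapped. All the peaks lay outside the gene. The peak at -44.8 kb had the highest score at the 9 genes in each RT112 library, 16.1 and 18.8, and no counterpart in UM-UC-3, whose nearest repeated peak stood at -46.0 kb (scores 6.61 and 5.16). On the other side, UM-UC-3 had its strongest peak at 39.9 kb (scores 9.2 and 12.3). A site at 22.7 kb held peaks of RT112 replicate 2 (9.31) and of both UM-UC-3 libraries (6.4 and 5.1).

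TWIST1 encodes a basic helix-loop-helix factor and lies on chromosome 7. Its canonical transcript is 2.17 kb long, but the annotated gene spans 96.6 kb, and the window and the genes of similar length follow the latter. The window held 7 and 2 peaks in RT112, against 7 and 6 in UM-UC-3. The scaled number was 0.726 and 0.332 in RT112, against 0.641 and 0.526 in UM-UC-3. The UM-UC-3 libraries lay between the RT112 libraries, and the sign of the difference turned under other settings. On the ratio to the flank, 1.4 and 0.814 in RT112 stood above 0.766 and 0.718 in UM-UC-3. The strongest repeated peaks of RT112, at 128 kb (scores 6.14 and 7.85), and of UM-UC-3, at 140 kb (scores 3.88 and 5.67), both lay in HDAC9, a histone deacetylase gene beside TWIST1. The RT112 peak was the one in which every word recurred, while no word of the UM-UC-3 peak recurred.

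The differences were set against the replicate error gene by gene. On the scaled number, both UM-UC-3 libraries were above both RT112 libraries for 2 of 9 genes, VIM and ZEB2, beside 32.4% of all protein-coding genes. Both RT112 libraries were above both UM-UC-3 libraries for 5 of 9, beside 27.4%. As raw numbers of peaks, none of these 5 genes had both RT112 libraries above both UM-UC-3 libraries. CDH1 and TWIST1 overlapped. The two-sided exact permutation p was 0.333, the smallest this design allows, for the 7 genes that did not overlap, 0.667 for CDH1 and 1.0 for TWIST1. These p-values were not adjusted over the 9 genes, since none could pass a threshold. On the ratio to the flank, an alternative added after these data were seen, 3 genes (FN1, ZEB1 and TWIST1) were higher in RT112, 1 (ZEB2) was higher in UM-UC-3 and 5 overlapped. FN1, ZEB1 and ZEB2 were the genes whose libraries did not overlap, in the same direction, on both scales. Both scales use the same window counts. The shares of all protein-coding genes that do so on the ratio, or on both scales, were not computed. On the scaled number, the mesenchymal markers did not share a direction, with VIM higher in UM-UC-3 and CDH2 and FN1 higher in RT112. On the ratio to the flank, VIM and CDH2 overlapped between the cell lines. Without its repeated peak of mostly recurring words, VIM did not stand apart on the scaled number either. FN1 turned in the gene with only 3 kb on each side. Among the repressors, ZEB1 and ZEB2 were opposed on both scales.

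**Figure D2:**
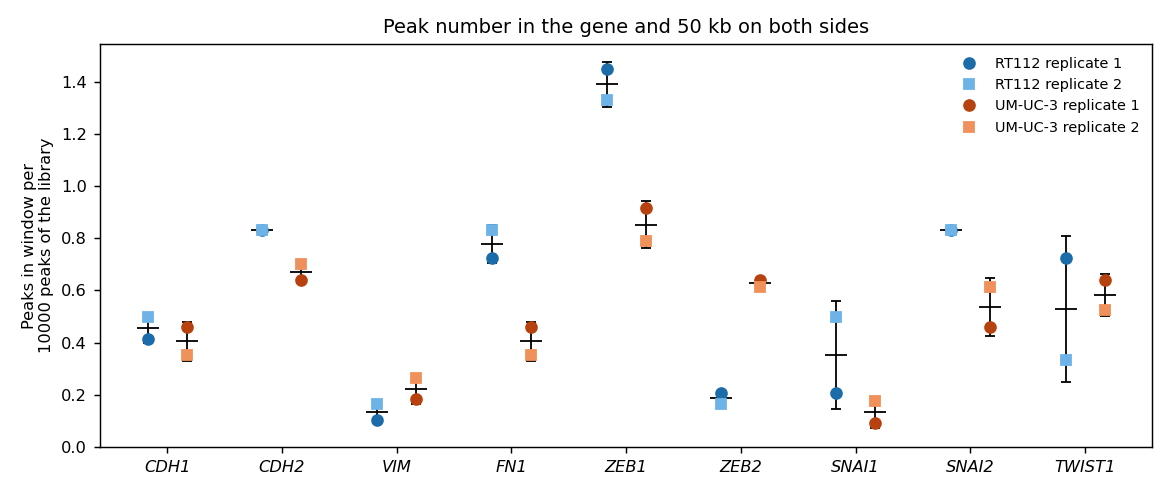
Peaks in each gene and 50 kb on both sides per 10000 peaks of the library, for 9 genes; points are libraries, horizontal bars are the means of the 2 replicates of a cell line and vertical bars are ± 1 SD. ZEB1 and FN1 lie higher in RT112 (blue), ZEB2 lies higher in UM-UC-3 (orange), and the points of CDH1 and TWIST1 overlap.

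Summed over the 9 windows, which cover 1803 kb, there were 53 and 33 peaks in RT112, against 49 and 50 in UM-UC-3. Scaled to 10000 peaks of the library, this was 5.50 and 5.48 in RT112, against 4.48 and 4.38 in UM-UC-3, a difference of -1.05. With 3 kb on each side the direction turned, to 0.0796, and for peaks with a score of at least 5 the difference was -3.09. Scores are not on a common scale, so this limit cuts the lists at different depths. It drops peaks scored 4.94 in RT112 replicate 1, above 55.2% of that list. It keeps peaks scored 5.16 in UM-UC-3 replicate 2, above 55.6% of that list. RT112 had 96423 and 60227 peaks and UM-UC-3 had 109287 and 114094, and the mean raw sum was 6.5 peaks higher in UM-UC-3, with overlap between the cell lines. As a density, the windows held 2.94 and 1.83 peaks per 100 kb in RT112, beside 3.11 and 1.95 over the whole reference, assembly gaps included. In UM-UC-3 they held 2.72 and 2.77, beside 3.53 and 3.69. In the 1 Mb beyond each window on both sides, the mean was 3.37 and 2.23 in RT112. It was 3.64 and 3.86 in UM-UC-3, so the density pooled over the windows was below the unweighted mean of the 9 flanks in both cell lines. Single windows did not all lie below their flank. SNAI2 lay above its flank in all 4 libraries, FN1 in both RT112 libraries and ZEB2 in both UM-UC-3 libraries. ZEB1 and TWIST1 did so in RT112 replicate 1.

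Each gene was also placed among the 500 protein-coding genes nearest to it in length, by the percentile of its peak number with ties counted at their middle. SNAI2 stood highest, at 97.1 and 93.5 in RT112, against 80.4 and 92.4 in UM-UC-3. The 1 Mb beyond its window held 5.1 and 3.6 peaks per 100 kb in RT112, beside 3.11 and 1.95 over the reference. In UM-UC-3 it held 4.15 and 5.0, beside 3.53 and 3.69, and length matching does not account for this. ZEB2 stood lowest in RT112, at 4.3 and 5.4, and reached 23.9 and 22.0 in UM-UC-3, so that even there most genes of its length held more peaks. CDH2 was low in all 4 libraries, at 23.5, 29.8, 9.5 and 13.6. FN1 (69.9 and 77.7) and ZEB1 (77.7 and 67.2) stood above the middle in RT112 and below it in UM-UC-3 (39.1 and 24.8 for FN1, 37.4 and 27.4 for ZEB1). CDH1 was below the middle in every library, between 18.8 and 44.5, as was VIM, between 25.5 and 47.5. SNAI1 was at 43.1 and 78.4 in RT112 and at 21.5 and 34.5 in UM-UC-3. TWIST1 was at 68.5 and 27.5 in RT112, on both sides of the 55.5 and 42.2 of UM-UC-3. The median over the 9 genes was 43.1 and 44.5 in RT112, against 33.6 and 27.4 in UM-UC-3, where 50 marks the middle of the genes of similar length.

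**Figure D3:**
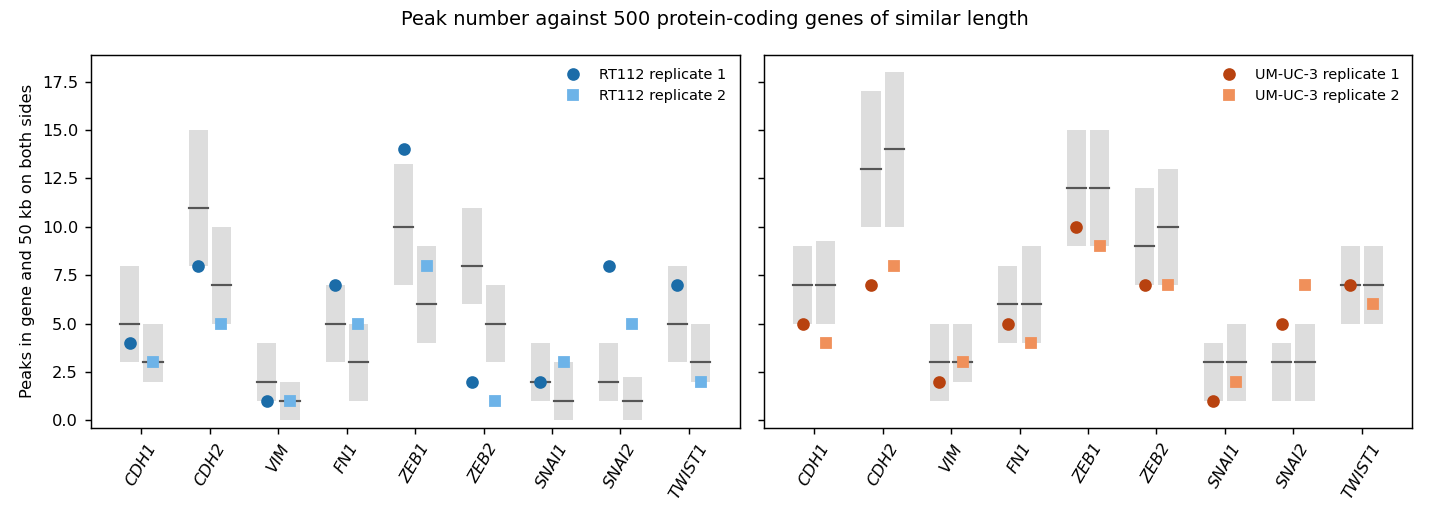
Number of peaks in each gene and 50 kb on both sides in 4 libraries (points), over the quartiles (grey boxes) and median (lines) of 500 protein-coding genes of similar length. SNAI2 lies above the box in every library, and ZEB2 lies below the box in RT112 and at its lower edge in UM-UC-3.

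Peaks at the 9 genes repeated between replicates about as often as peaks elsewhere. In RT112, 23 of 53 peaks of replicate 1 (43.4%, 95% Wilson interval 31.0 to 56.7) and 23 of 33 of replicate 2 (69.7%, 52.7 to 82.6) were found again, beside 38.2 and 61.3% of all peaks. In UM-UC-3 it was 35 of 49 (71.4%, 57.6 to 82.2) and 35 of 50 (70.0%, 56.2 to 80.9), beside 74.9 and 71.7%. The interval held the share of the whole library in each case. These intervals cover counting error only and treat peaks as independent. Within a cell line, both rest on the same overlapping pairs of peaks. Overlap with the other cell line was rare at 3, 3, 3 and 2 peaks (5.66, 9.09, 6.12 and 4.0%), beside 7.02, 7.73, 5.98 and 5.91% of all peaks. The median score in UM-UC-3 was 3.88 and 3.85, as over the whole lists. In RT112 the median was 4.94 and 5.29, against 3.8 and 4.09 over all peaks. Many scores are tied, and these medians stood not far above the middle of the lists. The score 4.94 was above 55.2% of all peaks of replicate 1, and 5.29 was above 57.7% of replicate 2. In RT112, scores of at least 10 were found in 9.43 and 3.03% of peaks, beside 10.1 and 8.75% of all. In UM-UC-3 such scores were found in 4.08 and 6.0% of peaks, beside 9.16 and 9.18%.

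When peaks that touched were merged over the 4 libraries, the 9 windows held 123 sites. Of these, 21 (17.1%) were in both RT112 replicates alone, 34 (27.6%) in both UM-UC-3 replicates alone, 38 (30.9%) in a single library of RT112, 26 (21.1%) in a single library of UM-UC-3 and 4 (3.25%) in both cell lines. Over the genome, these shares were 13.2, 30.3, 30.9, 22.4 and 3.24%. ZEB2 held 6 repeated sites of UM-UC-3 and 1 of RT112, and FN1 held 3 and 5. The 4 sites of both cell lines were the ones at CDH1, VIM, ZEB1 and SNAI2 given above. None had a peak in all 4 libraries.

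**Figure D4:**
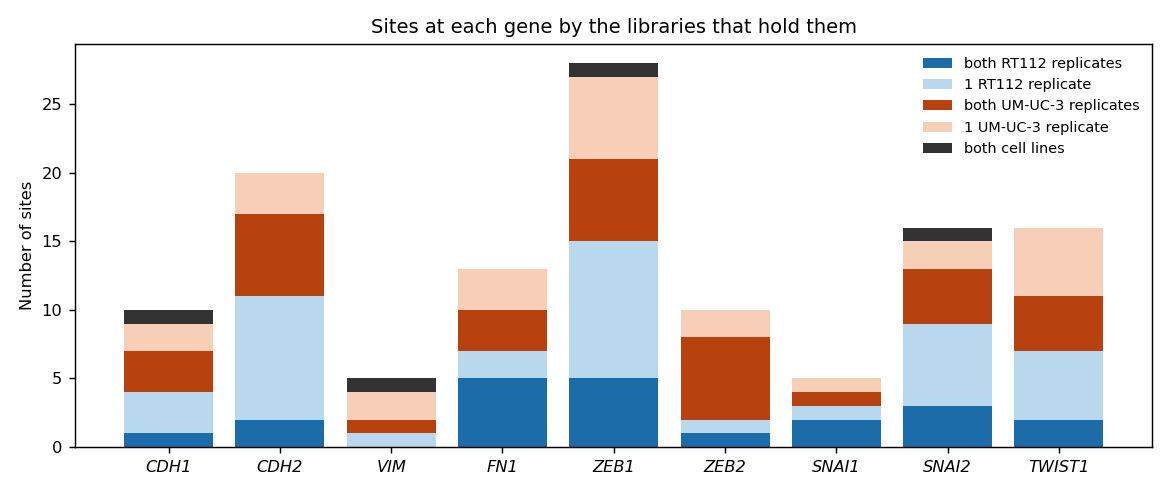
Number of merged peak sites in each gene and 50 kb on both sides, split by the libraries that hold them. Black marks the 4 sites of both cell lines, 1 each at CDH1, VIM, ZEB1 and SNAI2, and dark orange the 34 sites of both UM-UC-3 replicates, 6 of them at ZEB2.

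The peaks were mostly in introns or outside the gene bodies. In RT112, 20 of 53 and 13 of 33 peaks lay in introns of the 9 genes and 32 and 19 lay outside the gene bodies. In UM-UC-3, 23 of 49 and 20 of 50 lay in introns and 23 and 26 outside. A coding exon was touched by 1 peak in each UM-UC-3 library, the one in ZEB2, and by 0 in RT112. Not every peak can be assigned to the gene whose window it is in: the nearest start site of a protein-coding gene was that of the gene itself for 42 of 53, 28 of 33, 38 of 49 and 41 of 50 peaks.

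A wider list of 76 genes of the transition was read in the same way. Both RT112 replicates had a peak in the window of 64 of them, beside 80.9% of all genes, and both UM-UC-3 replicates of 70, beside 91.7%. A peak within 3 kb of the canonical start site in any library was found for 11 of 76, beside 23.9%. Both UM-UC-3 libraries were higher for 27 and both RT112 libraries for 20, against the 32.4 and 27.4% of all protein-coding genes given above. Among 25 epithelial genes the counts were 11 and 7, and among 21 mesenchymal genes they were 6 and 5. Among 15 further transcription factors they were 2 and 6, and among 15 genes of the TGF-beta pathway, a main inducer of the transition, they were 8 and 2.

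Of the 76 genes, 6 (JUP, CLDN4, CLDN7, S100A4, TGFB1 and SKI) had peaks in both UM-UC-3 libraries and none in RT112, and 0 had the reverse. The share of all protein-coding genes with either pattern was not computed. Both UM-UC-3 lists were longer than both RT112 lists. The genes of this paragraph were named after their values were seen. JUP, which encodes plakoglobin of the junctions, had 0 peaks in both RT112 libraries and 9 and 7 in UM-UC-3. TGFB1, the gene of the inducing ligand, had 0 in RT112 and 5 in each UM-UC-3 library, and S100A4, a calcium-binding protein of motile cells, had 0 in RT112 and 7 in each UM-UC-3 library. The desmosomal cadherin gene DSG2 had more peaks in RT112, with 7 and 5 peaks in RT112, against 2 in each UM-UC-3 library. CD44, a hyaluronan receptor, had 13 and 8 peaks in RT112, against 8 in each UM-UC-3 library, with a peak within 3 kb of its start site in both RT112 libraries.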

How the data were processed

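PAI-1 ChIP-seq of RT112 and UM-UC-3 was read from 1 peak list per ChIP library, and groups and replicate numbers came from the labels. Per the labels and the methods of the study, the authors used Bowtie 1.1.1 at default settings for alignment (hg19), Picard against PCR duplicates and MACS2 2.1.0.20140616 as the peak caller. The deposited score was taken to be a −log10 significance value, and whether it stands for p or q, the threshold, the use of the input and any pooling of replicates are not given in the sources used here. The lists hold no read counts, so depth is unknown. RT112 had 96423 and 60227 peaks and UM-UC-3 109287 and 114094, after 78 to 195 lines per list with an interval already listed were dropped (highest score kept).

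Genes were the 20162 protein-coding genes of GENCODE 44 on GRCh37, and the start site was that of the canonical transcript. Peaks overlapping the gene or 50 kb on either side were counted, per 10000 peaks of the library. Peaks counted as repeated when they shared at least 1 bp. The test of each gene was a two-sided exact permutation test over the 4 libraries. A numbered pairing was not used as a block: deviations of same-numbered libraries from the means of their cell lines had a correlation of -0.0224 over genes. Named genes were all 9 members and, outside this rule, some of the wider list chosen after their values were seen, and named peaks were, for each gene and cell line, the repeated peak with the highest lower score, the peak nearest the start site, and sites or exons singled out after their values were seen. The word count was added after the data were seen. The genes, the wider list and the tests were chosen with earlier results of these data known. Procedures were tested on simulated data. The software was matplotlib 3.10.9, numpy 2.4.6, pandas 2.3.3, Python 3.11.15 and scipy 1.17.1. Some sequences and 1 gene that the same rules named are not reported here.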

Additional observations from a re-analysis of the deposited data

How the results depend on the processing

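The summed difference between the cell lines (-1.05 peaks per 10000, UM-UC-3 minus RT112) was -0.843 with 100 kb on both sides, -3.09 for peaks with a score of at least 5, -1.74 with equal numbers of peaks from each list and -1.96 for peaks of both replicates only. It turned to 0.0796 with 3 kb on both sides and to 6.5 as a raw number of peaks, and leaving out each library in turn gave -1.11 to -1.0. With 3 kb on both sides, 5 of 9 genes had peaks in both libraries of RT112 and 6 in those of UM-UC-3. The median percentile among genes of similar length then came to 40.2 for RT112 and 37.4 for UM-UC-3. The share of UM-UC-3 peaks found again was then 73.2%. That share was 68.9% with 100 kb and 55.1% with a score of at least 5, where RT112 was higher at 68.6% (the shares were 70.7% for UM-UC-3 and 56.5% for RT112 without this limit), and genes with a peak in both replicates fell from 9 to 6 in UM-UC-3 and to 8 in RT112. The shares of all protein-coding genes with a peak in both replicates were not computed with 3 kb or with this score limit. The score limit cuts the lists at different depths, since scores are not on a common scale. By density against the 1 Mb beyond the window the median percentile in RT112 was 47.4. Start sites of any transcript raised the genes with a peak within 3 kb from 0 to 5. The median percentile ran from 43.1 to 44.5 in RT112 and from 27.4 to 33.6 in UM-UC-3 when a library was left out.

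The sign held under all 14 settings for ZEB1 and ZEB2. It also held for VIM, SNAI1 and SNAI2 except with 3 kb on both sides, where the difference was 0.0. Among these settings, the block by replicate number cannot change a difference. Counting every line, or placing peaks by their midpoint, gave the main values or nearly so. A held sign does not mean that the libraries stood apart. They did not for ZEB1 as a raw number, nor for SNAI2 as a raw number or against the flank. For VIM and SNAI1 they did not with 100 kb, with a score of at least 5, with equal numbers of peaks or against the flank. The same was true of SNAI1 as a raw number. FN1 turned with 3 kb (0.223). CDH1 turned with 100 kb (0.0181), as a raw number (1.0) and without UM-UC-3 replicate 2 (0.00103). CDH2 turned as a raw number (1.0), for peaks of both replicates only (0.191) and against the flank (0.0746). TWIST1 turned with a score of at least 5 (-0.361), with equal numbers of peaks (-0.166), for peaks of both replicates only (-0.0535), against the flank (-0.363), without RT112 replicate 2 (-0.143) and without UM-UC-3 replicate 1 (-0.00314). The cause was not tested. Over the libraries left out in turn, the range was -0.106 to 0.00103 for CDH1, -0.189 to -0.129 for CDH2, 0.0481 to 0.128 for VIM, -0.427 to -0.321 for FN1, -0.601 to -0.475 for ZEB1, 0.42 to 0.461 for ZEB2, -0.365 to -0.074 for SNAI1, -0.372 to -0.216 for SNAI2 and -0.143 to 0.251 for TWIST1. With the replicate number as a block, the paired difference summed over the 9 windows stayed at -1.05, as it must by arithmetic. The exact paired p of a gene was 0.5, the smallest possible, or 1.0 for CDH1 and TWIST1. The labels do not say that a number marks a shared day or batch.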
